A study of Homo sapiens with 12 samples.

Results

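The 39 genes described here encode the machinery that carries secretory and membrane proteins into the endoplasmic reticulum (ER), cuts and glycosylates them, and folds them. They also include the ER stress sensors ERN1 and ATF6 and the sensor target XBP1, which are grouped as sensors here. They were chosen by name among the 20212 protein-coding genes counted in PANC-1 cells. All 39 were found, 38 under their own symbol and ERN1 by its Ensembl identifier ENSG00000178607, because its name had been rewritten by a spreadsheet. The rule takes them by name and uses no threshold on a measured value, and all 39 passed the filter on low counts, as did 13329 genes in all.

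PANC-1 is an established line of human pancreatic duct cancer cells, and every value here comes from this single line. Control cultures received the vehicle DMSO and treated cultures received 50 nM rapamycin, an inhibitor of the kinase complex mTORC1, for 60 min, with 3 cultures in each group. Each culture gave 1 library of ribosome footprints (RF), the mRNA fragments that ribosomes shield from nuclease, and 1 library of total RNA, so there were 12 libraries. Nothing in the labels says whether the cultures were grown on separate occasions, so the p-values measure the spread between these cultures only.

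Proteins bound for the ER begin with a signal sequence that the signal recognition particle (SRP) grasps as it leaves the ribosome. SRP brings the ribosome to its receptor and to the SEC61 channel, where the translocon-associated protein (TRAP) complex sits beside the oligosaccharyltransferase (OST), which adds N-linked glycans, and signal peptidase removes the signal sequence. Chaperones and disulfide isomerases then fold the chain. When unfolded protein accumulates, ERN1 (also called IRE1) cuts the XBP1 mRNA and ATF6 is cleaved in the Golgi, and both routes raise transcription of chaperone genes. Exocrine pancreas is rich in this machinery.

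RF libraries summed to between 278835 and 1574723 counts and total RNA libraries to between 78081241 and 94293744. Where a gene had 0 counts, the upper limit of 3 corresponded to 1.91 to 10.8 CPM (counts scaled to library size, with TMM within library type) in the RF libraries and at most 0.0384 in total RNA, from counting error only. All 8 markers of pancreatic duct epithelium reached 1 FPKM, and none of 5 acinar, 3 islet or 1 endothelial markers did, whereas COL1A1 among 4 fibroblast markers (at most 1.53 FPKM) and CD68 among 3 leukocyte markers (69.0 to 88.3 FPKM) did. Total RNA of rapamycin replicate 2 stood apart from its group: its chi-square per gene against the other replicates was 23.0 and 23.6, whereas these differed from each other by 4.33. It held the lowest total RNA CPM of all 6 cultures for 24 of the 39 genes, against 26% of all genes. The smallest RF library, rapamycin replicate 3, held the lowest RF CPM for 17 of the 39, against 18.7% of all genes. By the same chi-square per gene, RF of DMSO replicate 2 differed from replicates 1 and 3 by 15.2 and 26.7, and these from each other by 9.15. In rapamycin, RF of replicates 1 and 2 differed by 15.0, 1 and 3 by 10.4, and 2 and 3 by 4.25.

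A pair of short sequences belongs to the ER stress response and lies in a few of these genes. The first is the stretch that the annotation leaves out of the XBP1 transcript spliced by ERN1. It lies at chr22:29192116-29192141 of GRCh37 on the minus strand, within an exon of the unspliced form. It is printed from the genome with its 26 bases, as annotated for the spliced transcript, in capitals and with 2 flanking bases on each side. A G opens the capitals and a G also follows them, so removing the stretch a base later leaves the same spliced sequence. The annotation thus does not tell which of these stretches ERN1 cuts out.
XBP1: ccGCAGCACTCAGACTACGTGCACCTCTgc

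The second is the ER stress response element (ERSE), a promoter element known to bind NF-Y and ATF6, which reads CCAAT, then 9 bases of any kind, then CCACG. It was searched on both strands in RefSeq promoter windows of GRCh38.p14, which run from 250 bases before to 50 after each gene's start, with 1 window a symbol. Of the 34 genes with a window, 5 held the letters, namely HSPA5, HSP90B1, CALR, CANX and XBP1, whereas 22 of all 27305 windows did (0.0806%). The element was searched as a known part of the ER stress response, so this contrast is no test of these genes. The matches follow, with the fixed letters in capitals. They lie at chr9:125241391-125241409 (HSPA5), chr12:103930216-103930234 and chr12:103930321-103930339 (HSP90B1), chr19:12938384-12938402 (CALR), chr5:179698778-179698796 (CANX) and chr22:28800603-28800621 (XBP1). Each is printed in the direction of the motif, which opposed the gene's own direction for CALR and for the downstream site of HSP90B1.
HSPA5: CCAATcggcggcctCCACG
HSP90B1, upstream site: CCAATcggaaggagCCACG
HSP90B1, downstream site: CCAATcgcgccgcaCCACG
CALR: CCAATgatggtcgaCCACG
CANX: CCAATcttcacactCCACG
XBP1: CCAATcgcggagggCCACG

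Among 94 windows of other genes of the ER pathway, 2 held the ERSE (ALG12 and CRELD2, which share 1 site between them). The shorter ERSE-II element, which reads ATTGG, 1 base of any kind and CCACG, was in none of the 34 windows and in 3 of the 94, those of HYOU1, SDF2L1 and HERPUD1, against 15 of all windows (0.0549%). The bare core CCACG, which lies inside both elements, was in 22 of the 34 windows (64.7%) and in 37.9% of all windows. A C at the annotated start followed by 4 pyrimidines, the layout of terminal oligopyrimidine mRNAs whose translation mTORC1 is known to control, was present in SEC63 and SSR2, 2 of 34 (5.88%), against 4.04% of all windows.

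The first question was how strongly each mRNA was occupied by ribosomes without the drug. Per length, CALR, a lectin chaperone, had 667 ± 100.4 RF CPM per kb of coding sequence in DMSO (SD, n = 3) and 498 ± 8.57 FPKM of total RNA. SEC61G, the smallest subunit of the SEC61 channel, had the highest footprint density of the 39, 840 ± 192 RF CPM per kb, from 163.5 ± 14.4 FPKM. At the other end stood ATF6, with 18.3 ± 14.3 RF CPM per kb and 10.4 ± 0.301 FPKM, and XBP1, with 25.6 ± 25.2 RF CPM per kb and 29.6 ± 1.25 FPKM. The spread between replicates was as large as the mean for XBP1 and nearly so for ATF6, so their order could not be told.

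Genes grouped under the name of 1 complex had unequal footprint densities, though not all of them need share an assembled complex. Within SEC61 the RF density ran from 80.0 CPM per kb in SEC61A1, the channel itself, to 840 in SEC61G, a 10.5-fold range, where FPKM ranged 2.49-fold. The SRP proteins ranged 16.5-fold in RF density, from SRP72 (27.8) to SRP14 (459), and 5.95-fold in FPKM. The RF range was 4.44-fold in TRAP (SSR1 lowest, SSR4 highest), where FPKM ranged 4.22-fold, and 3.13-fold in OST (STT3B lowest, DAD1 highest), where FPKM ranged 2.40-fold. Signal peptidase had the narrower range in RF, 2.55-fold (SEC11C lowest, SPCS1 highest) against 3.67-fold in FPKM. The coding sequence was 204 bases long in SEC61G and 510 in SRP14, the dense ends of the widest ranges, and 1685 in SEC61A1 and 2063 in SRP72, the sparse ends. The part of gene length in these ranges was not tested.

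RF relative to total RNA was then tested within the DMSO cultures, each gene against the average gene and with no correction for length. Of the 39 genes, 17 were lower and 8 higher in RF than in RNA at an adjusted p below 0.05 (edgeR's quasi-likelihood test, Benjamini-Hochberg over all genes), where 37.3% of all genes were lower and 17.1% higher. Their median log2 RF over RNA was -0.35, and that of all genes was -0.63. The rapamycin cultures, which this fit did not use, gave 21 lower and 8 higher (43% and 22% of all genes), and 23 of the 25 genes called in DMSO were called the same way, as were 83.2% of all genes called. Without DMSO replicate 1, which holds the fewest RF counts of the 3, 9 of the 39 were lower and 5 higher at a median of -0.55, where 13.7% of all genes were lower and 6.26% higher at a median of -0.71.

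ERN1, the kinase and nuclease that senses unfolded protein, had the highest RF over RNA of the 39. Its RF CPM was 169, 318 and 300.3 in DMSO replicates 1, 2 and 3 and 281, 104 and 149.7 in the rapamycin replicates. Its total RNA CPM was 21.2, 20.9 and 20.03 in DMSO and 21.4, 24.9 and 22.6 in rapamycin. ERN1 was thus scarce as RNA, at 3.52 ± 0.0383 FPKM in DMSO, and its footprints exceeded its share of RNA in every culture. The log2 RF over RNA was 3.65 ± 0.26 (SE, adjusted p = 8.39e-05, edgeR) in DMSO and 3.04 in rapamycin. The counts are summed over exons, so where on the ERN1 transcript the footprints lay was not tested.

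The next highest were SPCS2, an accessory subunit of signal peptidase, with a log2 RF over RNA of 1.49 ± 0.24 (adjusted p = 0.00227, edgeR), and HSPA5, with 1.28 ± 0.15 (adjusted p = 0.000628, edgeR). HSPA5 (also called BiP) is the main ER chaperone of the HSP70 family and holds the sensors inactive. Also higher in RF were SEC61G (1.14) and SEC61B (0.83) of the channel, SRP14 (1.07) and SRP68 (0.997) of SRP, and SPCS1 (0.85) of signal peptidase. SRP68 and SPCS1 did not pass in the rapamycin cultures (adjusted p = 0.0665 and 0.223, edgeR), and the other 6 did.

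The lowest RF over RNA belonged to SRP72 (-1.57 ± 0.24 on the log2 scale, SE) and SRP9 (-1.40 ± 0.16), both proteins of SRP, and to CANX (-1.32 ± 0.14), the membrane-bound lectin chaperone. SRP9 RF CPM was 76.9, 65.3 and 71.3 in DMSO and 67.1, 62.9 and 43.2 in rapamycin, from total RNA CPM of 188, 177 and 182 in DMSO and 182, 167 and 187 in rapamycin. CANX RF CPM was 634, 505 and 723 in DMSO and 613, 479 and 599 in rapamycin, from total RNA CPM of 1510.2, 1541 and 1493 in DMSO and 1549.8, 1435 and 1496 in rapamycin. For both genes RF lay below RNA in every culture, and their RF values overlapped between the treatments. SRP9 and SRP14, which bind the SRP RNA as a pair, thus lay on opposite sides of 0.

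By group, against 37.3% of all genes lower and 17.1% higher, 5 of 6 OST subunits were lower in RF than in RNA and none was higher, with DAD1 the subunit that did not pass (log2 RF over RNA of 0.29, adjusted p = 0.45, edgeR). The groups are small, and their differences from all genes were not tested. Of the 8 folding genes, 5 were lower (HSP90B1, CANX, PDIA3, PDIA6 and P4HB) and HSPA5 alone was higher. Signal peptidase had the highest group median (0.37), with SPCS1 and SPCS2 higher and SPCS3 lower. Across the 39 genes the values in DMSO and in rapamycin were correlated (r = 0.94, rho = 0.90, n = 39 genes, which share libraries and gene length). The values were hardly related to the coding share of exon length (r = -0.11 over the 39 genes and 0.14 over all genes).

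**Figure D1:**
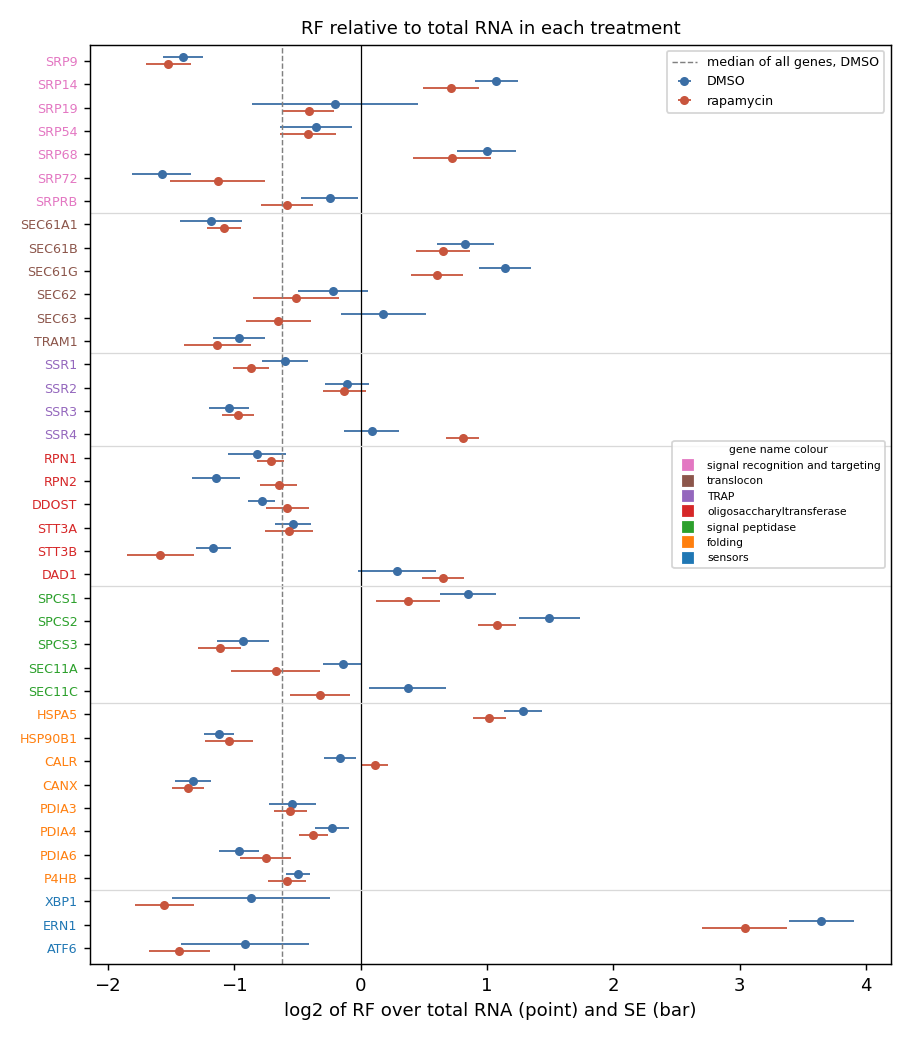
Log2 of RF over total RNA (horizontal axis) with its SE for the 39 genes, in DMSO (blue) and rapamycin (red) cultures, n = 3 each, with gene names coloured by group and a dashed line at the median of all genes in DMSO, -0.63. ERN1 stands far to the right at 3.65 in DMSO, and SRP72, SRP9 and CANX lie at the left end.

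The main question was what rapamycin did to the translation efficiency (TE, RF relative to total RNA) of these mRNAs. No gene of the 39 passed an adjusted p of 0.05 in either direction (edgeR's interaction of library type and treatment), and neither did any of the 13329 genes tested (0% lower and 0% higher). This fit shared the dispersion of each gene between RF and RNA and had no term for the culture. Its SE could thus fall below that of RF alone, as for SPCS2 (0.32 against 0.36), and its p-values may be too small. At an unadjusted p below 0.05, 0 of the 39 genes were lower and 1 was higher, where 6.42% of all genes were lower and 6.17% higher. The fitted change in TE was below 0 on the log2 scale for 30 of the 39 genes (53.7% of all genes) and above 0 for 9. Their median log2 fold change was -0.26, and that of all genes was -0.06. Leaving out each culture in turn gave between 25 and 31 genes below 0, the 25 without DMSO replicate 3, when 49.6% of all genes were below 0. In these fits 13 of the 39 genes changed sign at least once.

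DESeq2's Wald test called 3 of the 39 genes lower in TE, namely SPCS2 (adjusted p = 0.0225), SRPRB, a subunit of the SRP receptor (0.0478), and SEC61G (0.0479), and 1 higher, SSR4 (0.0419). It called 4.55% of all genes lower and 5.07% higher. In edgeR's test none of these 4 passed. The Wald test used the same design, with a single dispersion per gene and no term for the culture, so its p-values may also be too small. A limma fit (voom) with separate variances for RF and RNA called none of the 39 in TE.

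**Figure D2:**
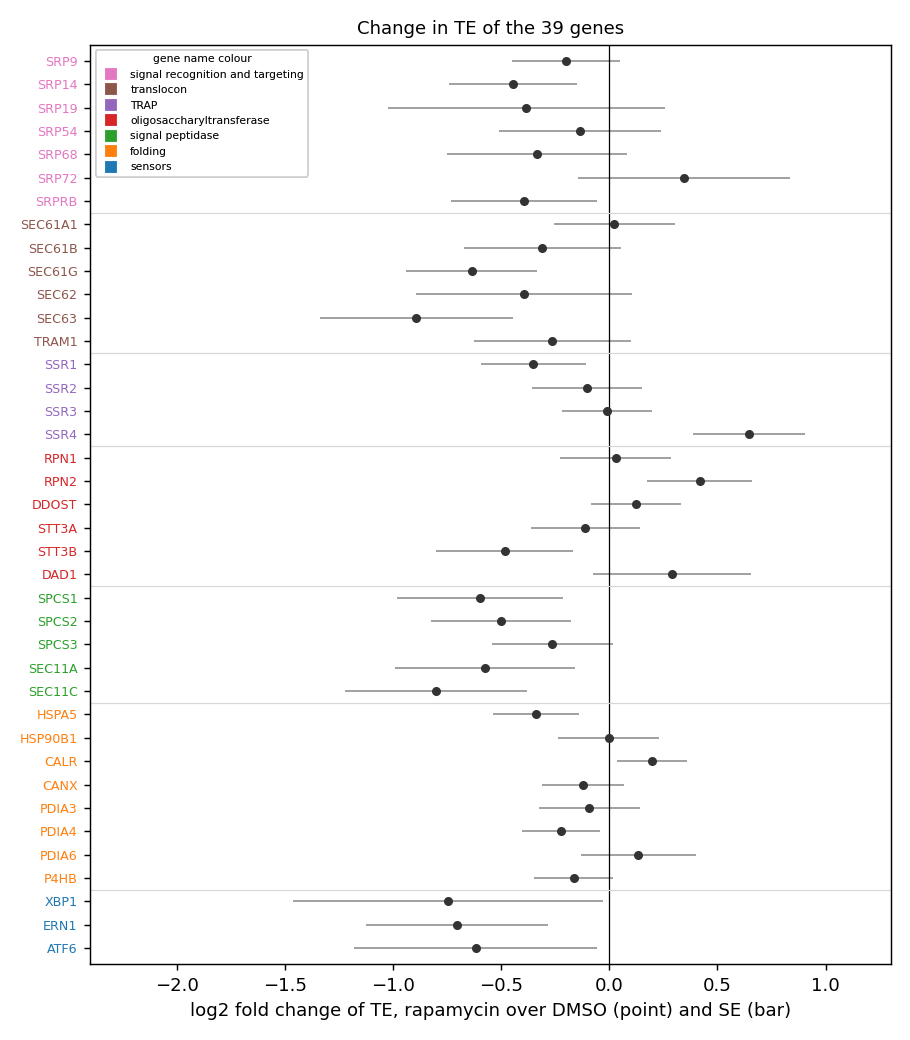
Log2 fold change of TE, rapamycin over DMSO (horizontal axis), with its SE for each of the 39 genes, coloured by group (3 cultures per treatment). Points lie left of 0 for 30 genes, including all 5 of signal peptidase, and OST points lie on both sides.

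SSR4, a TRAP subunit, had the smallest p of the 39. Its RF CPM was 289, 161 and 272 in DMSO and 328, 407 and 319 in rapamycin. Its total RNA CPM was 220.1, 222 and 215 in DMSO and 208, 207 and 206 in rapamycin. Every rapamycin culture thus lay above every DMSO culture in RF and below every one in RNA. The log2 TE of the cultures was 0.41, -0.44 and 0.35 in DMSO and 0.67, 0.98 and 0.64 in rapamycin (two-sided exact permutation p = 0.1, the smallest that 3 against 3 can give), and the fitted change was 0.65 ± 0.26 (SE, adjusted p = 0.331, edgeR). Without DMSO replicate 2, the lowest of the 6 cultures, the SSR4 change was 0.41. SSR4 was the only member of the 39 whose TE was higher in rapamycin with no overlap, as it was for 4.80% of all genes. Its exons overlap those of IDH3G on the opposite strand. Since no strand setting is given in the sources used here, it is not known how reads within the overlap were assigned.

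For 2 of the 39 genes the log2 TE of every rapamycin culture lay below that of every DMSO culture. Both encode parts of signal peptidase, but the count was near the share over all genes (6.19%) and is no result about that complex. SPCS2 RF CPM was 67.7, 106 and 93.8 in DMSO and 65.5, 55.7 and 66.5 in rapamycin, from total RNA CPM of 30.4, 33.2 and 30.3 in DMSO and 30.7, 29.2 and 30.7 in rapamycin. Its fitted TE change was -0.50 ± 0.32 (adjusted p = 0.557, edgeR; exact permutation p = 0.1). SEC11C, a catalytic subunit, had RF CPM of 43.1, 64.1 and 35.3 in DMSO and 31.5, 23.0 and 16.6 in rapamycin, from total RNA CPM of 34.7, 33.9 and 38.2 in DMSO and 36.9, 30.8 and 33.8 in rapamycin. Its fitted TE change was -0.80 ± 0.42 (adjusted p = 0.451, edgeR; exact permutation p = 0.1), and -0.38 without DMSO replicate 2. Both genes were lower in RF in all rapamycin cultures, with no such separation in RNA. The other 3 subunits, SPCS1, SPCS3 and SEC11A, had log2 TE changes of -0.60, -0.26 and -0.57, and their cultures overlapped.

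In the translocon, 5 of 6 genes had a log2 change in TE below 0 and the group median was -0.35. SEC61G RF CPM was 126, 193.5 and 194 in DMSO and 134, 103 and 76.5 in rapamycin, so that only DMSO replicate 1 fell within the rapamycin range. Its total RNA CPM was 71.3, 83.3 and 75.4 in DMSO and 74.2, 70.1 and 76.7 in rapamycin. The fitted TE change of SEC61G was -0.64 ± 0.30 (adjusted p = 0.406, edgeR), and its RF alone was -0.70 ± 0.31 (unadjusted p = 0.0373, adjusted p = 1, edgeR).

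SEC63, which couples the channel to HSPA5 in the lumen, had RF CPM of 64.6, 50.3 and 124 in DMSO and 43.9, 47.2 and 73.2 in rapamycin, which overlapped. Its total RNA CPM was 71.5, 71.8 and 69.3 in DMSO and 70.2, 103 and 72.6 in rapamycin, the high value being that of the library that stood apart. Its fitted TE change of -0.89 ± 0.45 was the most negative of the 39 (adjusted p = 0.428, edgeR), but it was -0.33 without DMSO replicate 3. The rest ranged from -0.39 in SEC62 to 0.02 in SEC61A1.

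Among the SRP and receptor genes, 6 of 7 had a change in TE below 0, with a median of -0.33. SRP72 was the exception, with RF CPM of 70.7, 38.96 and 62.5 in DMSO and 119, 48.4 and 23.3 in rapamycin, from total RNA CPM of 163.1, 168 and 159 in DMSO and 163.2, 159.9 and 163 in rapamycin. Its RF values in rapamycin spanned those of DMSO, and the fitted TE change was 0.34 ± 0.49, turning to -0.50 without rapamycin replicate 1. SRP19 had no footprint in DMSO replicate 1 (0 counts), against 43 and 82 in replicates 2 and 3, and 44, 25 and 7 in the rapamycin cultures.

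In OST, 4 of the 6 genes had a change in TE above 0, with a median of 0.08, and its difference from the other groups was not tested. RPN2, a structural subunit, had RF CPM of 268, 165 and 263 in DMSO and 353, 248 and 283 in rapamycin, from total RNA CPM of 508, 492 and 487 in DMSO and 478, 476 and 477 in rapamycin. Its fitted TE change was 0.42 ± 0.24 (adjusted p = 0.5, edgeR), and 0.22 without DMSO replicate 2. DAD1, a small subunit, had RF CPM of 39.99, 95.5 and 58.4 in DMSO and 71.3, 75.0 and 89.8 in rapamycin, from total RNA CPM of 52.1, 52.4 and 54.1 in DMSO and 49.4, 49.1 and 51.5 in rapamycin. Its fitted TE change was 0.29 ± 0.36 (adjusted p = 0.788, edgeR), and without DMSO replicate 3 it was 0.095. RF of both genes overlapped between treatments. Of the catalytic subunits, STT3A was at -0.11 ± 0.25 and STT3B at -0.48 ± 0.32.

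The fitted TE changes of the 8 folding genes had a median of -0.11 and ranged from -0.34 to 0.20. HSPA5 RF CPM was 719.8, 589 and 857 in DMSO and 591, 604 and 675 in rapamycin. Its total RNA CPM was 297, 287 and 285 in DMSO and 297, 356 and 293 in rapamycin, the value of 356 being again that of rapamycin replicate 2. The RF values overlapped, and the fitted TE change was -0.34 ± 0.20 (adjusted p = 0.5, edgeR), or -0.19 without DMSO replicate 3. CALR RF CPM was 957, 764 and 1032 in DMSO and 1040.4, 979 and 1011 in rapamycin, from total RNA CPM of 995, 999.7 and 1000.3 in DMSO and 998, 895 and 982 in rapamycin. Its fitted TE change was 0.20 ± 0.16 (adjusted p = 0.653, edgeR), with overlapping cultures, and 0.074 without DMSO replicate 2. HSP90B1, the ER member of the HSP90 family, was at -0.00 ± 0.23, and the disulfide isomerases PDIA3, PDIA4, PDIA6 and P4HB were at -0.09, -0.22, 0.13 and -0.17.

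In the sensor group, ATF6 and the sensor target XBP1 had few footprints. XBP1, the transcription factor mRNA that ERN1 splices, was covered by 6, 54 and 14 footprints in the DMSO cultures and by 18, 22 and 4 in the rapamycin cultures, or RF CPM of 18.5, 67.9 and 9.51 and of 14.9, 26.6 and 13.3. Total RNA of XBP1 was at 56.4, 59.5 and 54.9 CPM in DMSO and 57.8, 55.5 and 57.7 CPM in rapamycin. The fitted TE change was -0.75 ± 0.71 (adjusted p = 0.71, edgeR), and without DMSO replicate 2, whose 54 counts were the most of any culture, it was 0.72.

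ATF6, the sensor cleaved in the Golgi, was covered by 2, 39 and 104 footprints in the DMSO cultures and by 27, 36 and 10 in the rapamycin cultures, or RF CPM of 6.15, 49.0 and 70.7 and of 22.4, 43.6 and 33.3. Total RNA of ATF6 was at 88.5, 87.5 and 82.9 CPM in DMSO and 90.5, 89.2 and 87.1 CPM in rapamycin. The fitted TE change was -0.62 ± 0.56 (adjusted p = 0.693, edgeR), with DMSO values on both sides of all rapamycin values, and it was -0.10 without DMSO replicate 3. ERN1, whose values are given above, was at -0.70 ± 0.42 (adjusted p = 0.513, edgeR), and its rapamycin replicate 1 lay within the DMSO range. Leaving out rapamycin replicate 1 gave -1.33 for ERN1, and leaving out rapamycin replicate 2 gave -0.35.

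**Figure D3:**
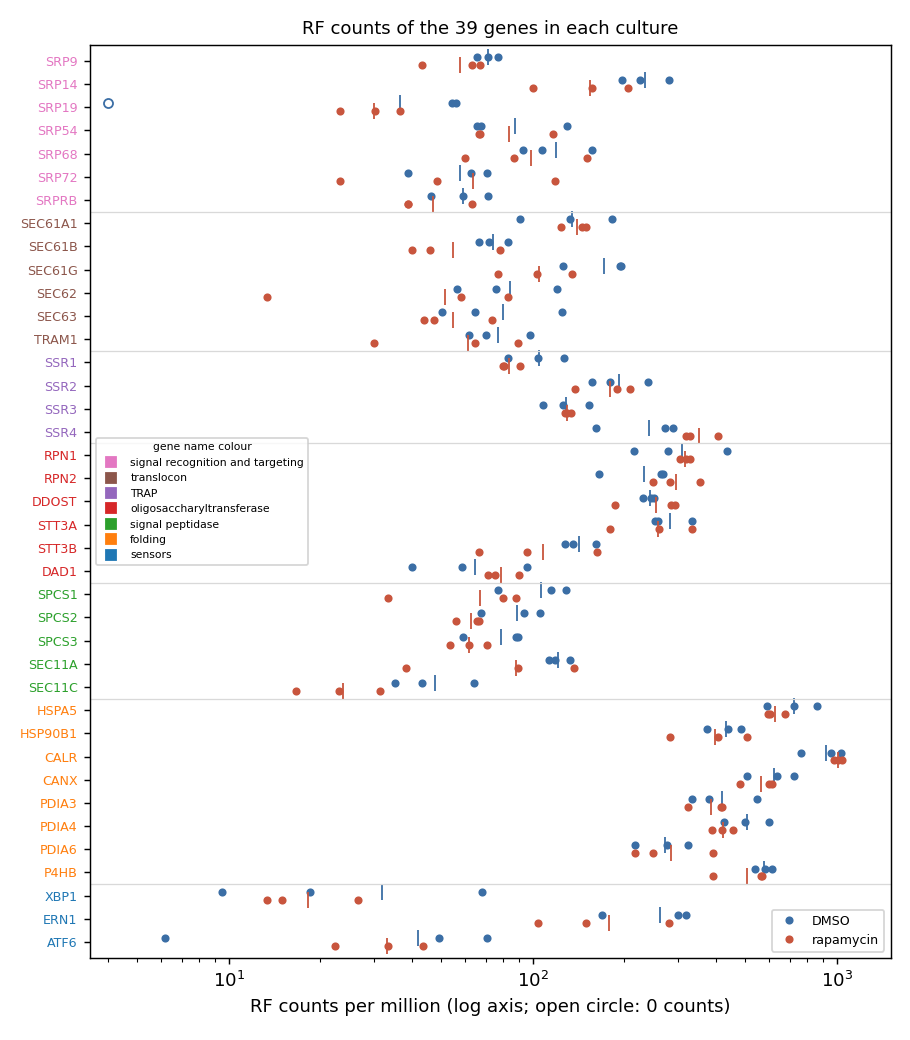
RF CPM (horizontal log axis) of the 39 genes in each of the 6 cultures, DMSO in blue and rapamycin in red, with a tick at each group's mean and an open circle for the culture with 0 counts (SRP19). The treatments separate in SSR4, SPCS2 and SEC11C and overlap in the other 36 genes.

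In RF on their own, no gene passed an adjusted p of 0.05 (edgeR, 0% of all genes in either direction), and DESeq2's Wald test called 0 of the 39. At an unadjusted p below 0.05 only SEC61G was lower and SSR4 higher, where 1.92% of all genes were lower and 1.76% higher. RF was separated between treatments in SPCS2 and SEC11C (lower, as for 4.21% of all genes) and in SSR4 (higher, 5.24%). The median log2 fold change of RF was -0.26 over the 39 genes, 29 of which were below 0 (48.7% of all genes), and 0.02 over all genes.

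The counts of each group were summed and expressed as a share of the library. The 39 genes together took 0.8205% ± 0.0779 of the RF counts in DMSO and 0.7967% ± 0.0209 in rapamycin (SD, n = 3), and 1.11% and 1.10% of the total RNA counts. For signal peptidase the RF share was 0.0439%, 0.0451% and 0.0394% in DMSO and 0.0282%, 0.0323% and 0.0330% in rapamycin, all lower. The SRP and receptor genes (0.0644% against 0.0546% on average) and the translocon (0.0600% against 0.0476%) were also lower in each rapamycin culture. TRAP (0.0645% against 0.0764%) and OST (0.1226% against 0.1343%) were higher in each, whereas the folding genes and the sensor group (ERN1, ATF6 and XBP1) overlapped. Each of these 5 separations needed the group's most counted gene: without SRP14, SEC61G, SSR4, RPN1 or SPCS1 respectively, the cultures of the 2 treatments overlapped.

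**Figure D4:**
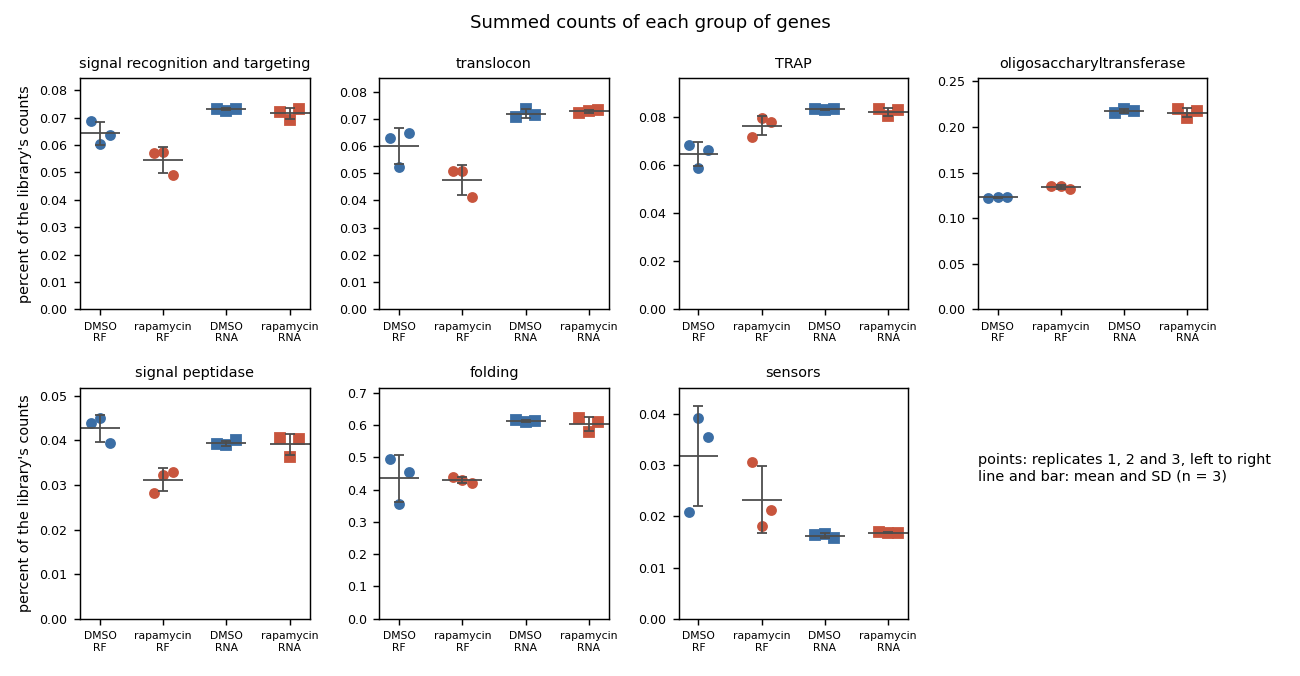
Summed counts of each group of genes as a percent of the library's counts (vertical axes, from 0), for RF (circles) and total RNA (squares) in DMSO (blue) and rapamycin (red), with mean and SD over 3 cultures. RF shares of signal peptidase, translocon and targeting genes lie lower in rapamycin, those of TRAP and OST lie higher, and RNA shares are close in both.

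Total RNA gave a much tighter measure, with a biological coefficient of variation of 0.053 against 0.549 for RF. No gene of the 39 passed the test for a change in total RNA (smallest adjusted p = 0.766, edgeR, 0% of all genes in either direction), DESeq2's Wald test called 0 of the 39, and all 39 fitted changes lay between -0.11 and 0.21 on the log2 scale. The fitted change was below 0 for 30 of the 39 genes, against 46.8% of all genes, but for 19 of the 39 when rapamycin replicate 2 was left out. At an unadjusted p below 0.05, SRP14 (-0.11 ± 0.05) and SSR4 (-0.08 ± 0.03) were lower and ERN1 (0.15 ± 0.06) was higher, where 2.51% of all genes were lower and 3.32% higher. The treatments did not overlap in 6 genes that were lower (SRP14, SRP54, SRPRB, SSR4, RPN2 and DAD1; 6.61% of all genes) and in 1 that was higher (ERN1; 8.22%). The ERSE genes HSPA5, HSP90B1, CALR, CANX and XBP1 were at 0.12, -0.09, -0.06, -0.02 and 0.00.

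The deposited isoform values of total RNA separate XBP1 transcripts with and without the stretch printed above. The transcript annotated as spliced, ENST00000344347, made up 9.15%, 4.86% and 6.86% of XBP1 FPKM in DMSO replicates 1, 2 and 3. In the rapamycin replicates it made up 4.72%, 1.51% and 5.18%. The lowest share was that of the total RNA library that stood apart, and DMSO replicate 2 lay within the rapamycin range. The mean was 6.96% ± 2.15 in DMSO and 3.80% ± 1.999 in rapamycin, a difference of -3.15 percentage points that did not pass the test (two-sided exact permutation p = 0.2, n = 3, smallest possible 0.1). Without rapamycin replicate 2 the direction was the same. By the authors' normalized isoform counts, the spliced transcript held 18.4 to 116.5 fragments a library, and the shares were 4.13% and 2.22% (exact permutation p = 0.2, n = 3). Cufflinks estimates these values from reads that isoforms mostly share, so they are estimates and not counts of junction reads. The annotated transcripts also differ outside the printed stretch, so the share does not measure ERN1 splicing alone.

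**Figure D5:**
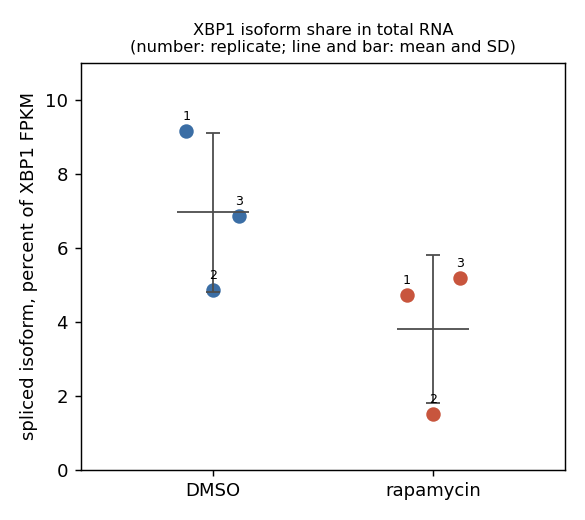
Share of XBP1 FPKM in total RNA given to the spliced transcript (vertical axis, percent) in each culture, labelled by replicate, with mean and SD for DMSO (blue) and rapamycin (red). DMSO values run from 4.86% to 9.15% and rapamycin values from 1.51% to 5.18%, so that the treatments overlap.

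Other genes of the ER pathway, in lists that hold none of the 39, were examined in the same fits. Of 113 genes, 110 were tested, and none passed in TE in edgeR's test, whereas DESeq2's Wald test called 5 lower and 7 higher (4.55% and 5.07% of all genes). At an unadjusted p below 0.05, 7 were lower and 7 higher (6.42% and 6.17% of all genes). The cultures did not overlap in 3 that were lower and 8 that were higher (6.19% and 4.80% of all genes). Their fitted change in TE lay below 0 for 46 and above 0 for 64, with a median log2 fold change of 0.13. Of the 39 genes, 30 had a change below 0, and the difference was not tested. Membrane insertion and other channel and OST genes (25 tested) had a median of 0.17, glycan assembly and trimming genes (29) 0.19, co-chaperones, oxidoreductases and stress targets (26) 0.13, ER-associated degradation genes (21) 0.02, and partners of the sensors (9) -0.27.

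The co-chaperone list held the gene with the most footprints among those named by p: PPIB, an ER prolyl isomerase, covered by 94, 208 and 343 footprints in the DMSO cultures and by 426, 311 and 135 in the rapamycin cultures, with a log2 TE change of 0.61 ± 0.18 (adjusted p = 0.231, edgeR). In the same list DNAJC3, an HSPA5 co-chaperone, was at -0.80 ± 0.31 (adjusted p = 0.311, edgeR). Among glycan genes, DOLK, which makes dolichol phosphate, was at -1.38 ± 0.39 and ALG5, which makes the glucose donor for the lipid-linked glycan, at 1.57 ± 0.53 (adjusted p = 0.231 and 0.262, edgeR). EMC2 (-1.26 ± 0.54) and EMC6 (1.499 ± 0.69), both subunits of the ER membrane complex that inserts membrane proteins, had the smallest p of their list in opposite directions. Their adjusted p was 0.358 and 0.388 (edgeR). EDEM2 (-1.18 ± 0.52) and EDEM1 (1.24 ± 0.77) trim mannose from misfolded glycoproteins (adjusted p = 0.36 and 0.532, edgeR). CREB3L2 (-0.91 ± 0.79) and CREB3L1 (3.5 ± 1.72) are transcription factors cleaved like ATF6, and CREB3L1 had at most 6 RF counts in any culture. RF counts were also low for EDEM1, at 1, 0 and 9 in DMSO and 7, 13 and 1 in rapamycin. EMC6 had 9, 0 and 16 in DMSO and 45, 14 and 1 in rapamycin. ALG5 had 3, 9 and 8 in DMSO and 26, 11 and 14 in rapamycin.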

How the data were processed

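Total RNA and RF of PANC-1 cells treated with DMSO or 50 nM rapamycin were analysed. The authors filtered and trimmed RF reads, removed ribosomal RNA, aligned both kinds of read to GRCh37 with HISAT2 and counted the unique ones over protein-coding exons using featureCounts, and they deposited these raw counts. The deposited FPKM values and the deposited signal (isoform counts normalized between libraries) of total RNA were made by Cufflinks 2.2.1 and cuffnorm. The same count table holds the authors' own TE values, log2 fold changes and p-values from RiboDiff, which were not used, and a column headed fpkm that holds the mean of the DMSO total RNA counts. No column belonged to a sample outside the series.

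The tools were edgeR 4.0.16 and DESeq2 1.42.0 for count models, limma 3.58.1, R 4.3.3 and Python 3.11.15. A gene was tested if its RF libraries and its RNA libraries each summed to 10 counts or more. TMM scaling was done within library type, and the tests were edgeR's quasi-likelihood tests (robust): TE as the interaction of library type and treatment, RF alone, total RNA alone, and RF against RNA within DMSO. The fits of TE and of RF against RNA took a single dispersion per gene over both library types and had no term for the culture. P-values were adjusted by Benjamini-Hochberg over the 13329 genes. A prior count of 2 was added for the log2 TE of a culture. Coding and exon lengths are unions over transcripts of GENCODE's annotation of GRCh37, whose version differs from the authors'. The tests were tested on simulated counts, where only the total RNA test recovered most of the changes put in and the others recovered few. The TE and total RNA tests also called some unchanged genes there. On the measured counts, by contrast, the test of RF against RNA in DMSO called 37.3% of all genes lower and 17.1% higher. The trial is thus no measure of power on the measured counts, and how closely it resembles them was not tested. Of the 39 genes, 12 have exons that overlap another protein-coding gene, among them SSR4, SRPRB, RPN2 and SPCS1.

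The genes and gene lists were chosen with earlier results of these data known. Values per library are given for ERN1, ATF6, XBP1 and HSPA5 and for the 5 smallest p in each direction of TE. They are also given for genes whose log2 TE does not overlap and for the 3 highest and lowest in RF over RNA. Of other pathway genes, the smallest p in each direction of each list is named. The motif searches, the shares of summed counts with and without the most counted gene, and the ranges within complexes were chosen after seeing the data. Replicate numbers were not taken as pairs in the main fits, and the labels do not say whether they pair the cultures. Same-numbered DMSO and rapamycin libraries had correlations of deviations between -0.216 and -0.061, which cannot tell how the cultures were handled.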

Additional observations from a re-analysis of the deposited data

How the results depend on the processing

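In the alternatives run, no gene of the 39 was called in TE, RF or total RNA except by DESeq2's Wald test in TE (3 lower, 1 higher, with 606 genes lower and 675 higher overall), where log2 changes were 0.66 for SSR4, -0.63 for SEC61G and -0.55 for SPCS2. Over all genes, calls moved from 0. In RF, the Wald test called 1 lower and 4 higher, no count filter 10 and 10, and the replicate block 2 and 4. In total RNA, the Wald test called 4 lower and 25 higher, and limma-trend on log2(FPKM + 0.1) called 1 higher. Leaving out a culture called 0 to 374 genes lower and 0 to 70 higher in TE, 0 to 1 and 0 to 6 in RF, and 0 to 6 and 0 to 875 in total RNA, the largest counts in TE and total RNA without DMSO replicate 3 and those of 6 in RF without rapamycin replicate 1. The number of the 39 genes below 0 in total RNA ranged from 19 to 33. The fitted change in TE switched sign when a culture was left out for 13 of the 39. Of these, 3 have their values per library printed: XBP1 (-1.45 to 0.72), CANX (-0.27 to 0.007) and SRP72 (-0.50 to 0.61). The turned values came without DMSO replicate 2, DMSO replicate 3 and rapamycin replicate 1, respectively. The cause of these shifts was not tested.

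For RF against RNA in DMSO, leaving out a culture gave 1825 to 5702 genes lower and 835 to 2210 higher, 9 to 16 and 5 to 9 of the 39, and medians from -0.55 to -0.33. The replicate block gave 3121 genes lower and 1370 higher, and it changed no other count by over 1.5 times. The median of the 39 was -0.58 in the rapamycin cultures and 2.06 as RF per coding kb over RNA per exon kb, where that of all genes was 1.22. The XBP1 difference ranged from -4.20 to -2.00 points. RF depth limits every TE value: 3 counts allow up to 10.8 CPM in the smallest RF library.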
